A study of Mus musculus with 12 samples.

Results

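The immune cells of a tumour grown from Clone EM3 were compared with those of a tumour grown from Clone E, gene by gene within each class of immune cell. Both clones were derived from single cells of 4T1, a mouse mammary carcinoma line used as a model of triple-negative breast cancer. The members were all cells of the 2 CD45 libraries of these tumours, 10894 from Clone E and 11024 from Clone EM3, together 21918 of the 115612 cells in the 12 libraries of the series. CD45, the protein of Ptprc, sits on the surface of nearly all white blood cells. Droplets called as doublets, which probably held more than 1 cell, were left out (235 and 202), so that 10659 and 10822 cells entered the comparison. Each cell's class was the one in the authors' deposited annotation.

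Both groups were tumours in the mammary fat pad of female BALB/c mice aged 9 to 11 weeks, and the labels name no drug or other treatment for either. The tumours were digested with collagenase A and hyaluronidase, red cells were lysed, and white cells were taken with magnetic beads against CD45. The labels name epithelial, intermediate and mesenchymal states for the 5 clones of the study together, without giving the state of Clone E or Clone EM3. Each side was 1 clone in 1 tumour with 1 CD45 library. Clone, host animal, tumour and the handling of that library cannot be told apart within the pair, and no test of the clones was possible. The unsorted cells of the same 2 tumours had been sequenced as Total libraries, which serve here as a second library of each tumour and not as replicates. The 4 other CD45 libraries, from Clone EM1, Clone EM2, Clone M and Parental 4T1, came from other capture wells and give the range of levels among the other tumours.

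Macrophages of a tumour arise both from blood monocytes, which carry Ly6c2, and from long-lived tissue macrophages, which carry scavenger and folate receptors such as CD163, stabilin-1 and the product of Folr2. Interferons switch on a shared set of genes in most cell types, among them Isg15, Irf7 and Ifi27l2a, through short promoter elements bound by interferon-activated transcription factors. The inducible chaperone Hsp70, made from the neighbouring genes Hspa1a and Hspa1b, is produced by cells under protein stress.

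The counts of each gene were summed over all cells of a class in each library and divided by the sum of all genes, which gives the relative abundance as CPM with the same total in every class and library. A gene was measured in a class where its mean over both libraries was at least 50 CPM, and past the threshold where the ratio of the 2 levels, with 10 CPM added to each, was at least 2-fold and the 95% intervals did not overlap. The exact Poisson intervals in brackets cover counting error only. Log2 ratios are EM3 over E on the CPM + 10 scale, which understates the change of low genes. The sums alone do not tell more cells that carry a gene from more RNA in each of them. For some genes the cells with a molecule are therefore given too.

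The 2 CD45 libraries were alike in depth, with 50715096 molecules counted for Clone E and 57116299 for Clone EM3, and medians of 3335.5 and 3453 per cell. Macrophages were the largest class (5118 and 5061 cells), followed by granulocytes (2572 and 2963), T cells (1802 and 1721), Other Myeloid cells (412 and 533), dendritic cells (315 and 298), B cells (274 and 91), NK cells (88 and 69) and T/Myeloid Hybrid cells (78 and 86). The median depth of a macrophage was 6029.5 in Clone E and 7579 in Clone EM3, and that of an Other Myeloid cell 9185 and 2692. T cells and granulocytes matched their defining markers: the summed T cell markers were at 6412 and 6182 CPM in T cells against 26.3 and 26.6 CPM in macrophages, and the granulocyte markers at 159698 and 171168 CPM in granulocytes against 6548 and 6609 CPM in macrophages. The dendritic class was less distinct, with 3491 and 3900 CPM of dendritic cell markers beside 16824 and 17610 CPM of macrophage markers. RNA known from other cells was present in T cells, where macrophage markers summed to 2991 and 3598 CPM and granulocyte markers to 2138 and 3277 CPM. Where a gene was at least 10 times higher in another cell class of the same tumour, its value is given with that fact. Clone E and Clone EM3 shared 1 capture well, and 1640 droplet barcodes occurred in both CD45 libraries. Even so, a second table row of Hdc, called deprecated, held 5.75% of its molecules in the Clone E and 27.1% in the Clone EM3 CD45 library. The reason was not tested.

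Most genes were at similar levels in both tumours. In macrophages 20 of 3649 measured genes (0.548%) were past the threshold on the higher side in Clone EM3 and 22 (0.603%) on the lower side, while 96.0% of the genes lay within 1.5-fold. Granulocytes had 3 higher (0.109%) and 11 lower (0.399%) of 2757 genes, a balance that turned over in the Total libraries of the same tumours (34 higher and 21 lower), and T cells 18 higher (0.372%) and 9 lower (0.186%) of 4839. Dendritic cells had 21 higher (0.543%) and 17 lower (0.44%) of 3865 genes, and Other Myeloid cells 35 higher (0.847%) and 24 lower (0.581%) of 4134. NK cells had 35 higher (0.762%) and 28 lower (0.61%) of 4592, and T/Myeloid Hybrid cells 32 higher (0.777%) and 59 lower (1.43%) of 4119. B cells stood apart, with 307 higher (6.67%) and 82 lower (1.78%) of 4606. With TMM factors, which rescale the totals for a difference in composition, the split was 149 and 157.

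A small set of genes differed in the same direction in several classes. On the higher side in Clone EM3, Hspa1a passed the threshold in 7 of 8 classes, all but granulocytes. A second table row of Mxi1, which the files call deprecated, did so in 6 of the 7 classes in which it was measured, but its log2 ratio in the Total libraries was between -0.67 and 0.03 in the 5 classes compared. Hspa1b passed it in 5 of 8. Itgam (the integrin chain CD11b) and Ahnak (a giant scaffold protein) did so in 4 classes each, and Fcrls (an Fc receptor-like protein of macrophages), Pf4 (platelet factor 4), Stab1, Fn1 (fibronectin), Msr1, Klf2, Arsb, Hal, Pmp22 and a deprecated second row of Cpeb2 in 3 each. Fcrls was measured only in 3 classes, macrophages, dendritic cells and Other Myeloid cells, which share macrophage markers, and Pf4 and Stab1 were measured in 5 and 4. On the lower side were Isg15 and Inhba (the activin A subunit) in 5 classes each, Irf7, Ly6e, Spon1, Cfb (complement factor B) and the antibody gene Igkc in 4 each, and Chil3, Ifi27l2a, Ighg1, Ly6c1, Ly6c2, Plac8 and Slc7a2 in 3 each. In B cells of the same tumour Igkc and Ighg1 were at least 10 times higher than in the other classes counted. In all, 15 genes or rows were higher and 14 lower in at least 3 classes. Without the cell with most molecules on each side, Hspa1a (10.8 and 78.3 CPM) and Isg15 (74.5 and 15.6 CPM) in B cells no longer passed. Nor did Chil3 in granulocytes, Igkc in T cells and Spon1 in T/Myeloid Hybrid cells. Of these, Igkc fell under 2-fold (log2 ratio -0.89). The others stayed past 2-fold, with log2 ratios of 2.08 for Hspa1a, -1.72 for Isg15, -1.15 for Chil3 and -2.04 for Spon1. Their means were under the limit for a measured gene.

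**Figure D1:**
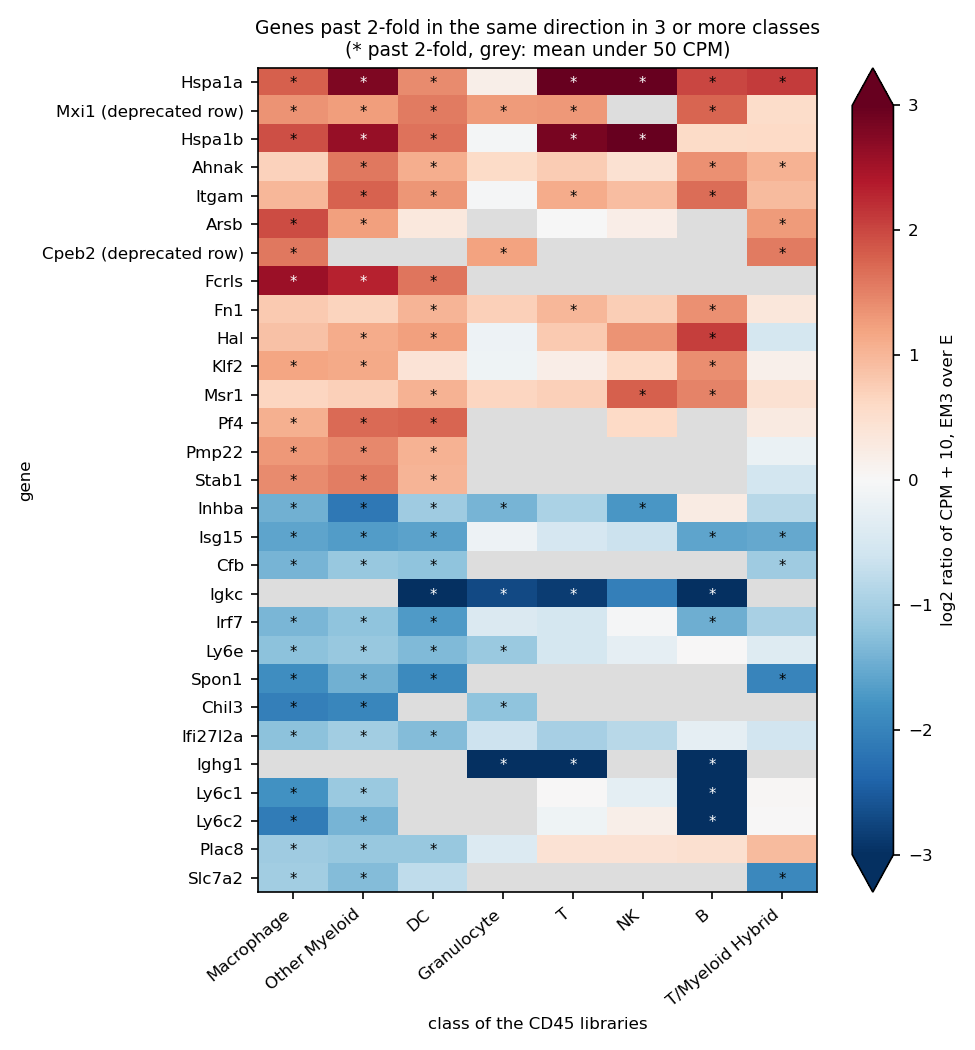
Log2 ratio of the level in Clone EM3 over Clone E (CPM + 10) for each gene past 2-fold in the same direction in at least 3 classes, with 1 column per class of immune cells. Hspa1a (7 classes), the deprecated row of Mxi1 (6) and Hspa1b (5) lead the higher side, and Isg15 and Inhba (5 each) the lower side.

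Several interferon-stimulated genes, Isg15, Irf7 and Ifi27l2a among them, were past the threshold on the lower side in macrophages, dendritic cells and Other Myeloid cells of the Clone EM3 tumour, while Rsad2 in macrophages was not. The promoters of Isg15 and Rsad2, 250 bases before to 50 after the start as RefSeq gives it for GRCm38.p6, are printed because Isg15 was lower in Clone EM3 macrophages and Rsad2 was not. Capitals mark GAAANNGAA, the core of the interferon-stimulated response element, read on both strands. Isg15 lies at chr4:156199424-156200818 and its window at chr4:156200769-156201068 on the minus strand, with 3 overlapping matches. Rsad2 lies at chr12:26442743-26456452 and its window at chr12:26456403-26456702 on the minus strand, with 1 match on the opposite strand.
Isg15: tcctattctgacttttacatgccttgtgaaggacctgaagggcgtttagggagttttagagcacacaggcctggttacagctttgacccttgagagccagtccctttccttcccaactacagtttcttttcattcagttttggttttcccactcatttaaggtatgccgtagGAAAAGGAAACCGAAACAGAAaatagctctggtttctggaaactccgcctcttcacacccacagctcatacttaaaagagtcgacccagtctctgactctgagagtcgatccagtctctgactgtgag
Rsad2: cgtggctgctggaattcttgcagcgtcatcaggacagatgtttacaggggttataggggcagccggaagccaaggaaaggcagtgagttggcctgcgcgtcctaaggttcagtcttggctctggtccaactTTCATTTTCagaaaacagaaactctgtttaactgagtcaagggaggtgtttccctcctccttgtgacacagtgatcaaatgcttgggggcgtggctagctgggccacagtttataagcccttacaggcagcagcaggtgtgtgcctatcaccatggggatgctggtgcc
GAAANNGAA occurred in the window of 9.76% of all 27025 genes with a promoter entry and of 8.82% of the 2938 genes measured in macrophages that had one. It occurred in 3 of the 16 genes lower in macrophages with a promoter entry (18.8%) and in 2 of the 18 higher ones (11.1%). The Irf7 window (chr7:141266375-141266674, minus strand) held neither this motif nor TTCNNNGAA, found in 9.55% of promoters, nor ACGTG, found in 21.8%. A match describes the letters of this window and says nothing of binding.

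Isg15 encodes a ubiquitin-like protein that is attached to other proteins after interferon. In macrophages its level was 445.6 CPM (438.7 to 452.7) in Clone E and 141.7 CPM (138.1 to 145.4) in Clone EM3, and in the Total libraries of the same tumours 323.2 and 105.8 CPM. Clone E was the tumour that stood apart: the 4 other CD45 libraries held 137.4 to 155.3 CPM, next to Clone EM3. In dendritic cells Isg15 was 329.5 CPM (305.1 to 355.3) against 101.6 CPM (88.8 to 115.8), with the other tumours at 141.8 to 287.2 CPM, so here Clone EM3 was the lowest of the 6 and Clone E the highest. The Total libraries gave 184.7 and 107.9 CPM in dendritic cells, short of 2-fold. In Other Myeloid cells the values were 349.8 and 102.4 CPM. T cells showed a smaller difference, 128.8 against 87.6 CPM, and granulocytes hardly any, 944.9 against 843.7 CPM, so that the gene was below 0 on the log2 scale in all 8 classes and past the threshold in 5.

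Irf7, the transcription factor that amplifies interferon production, was also lower in Clone EM3. Macrophages had 271.7 CPM (266.3 to 277.2) in Clone E and 98.1 CPM (95.1 to 101.2) in Clone EM3, dendritic cells 343.1 and 99.4 CPM (268.8 and 161.8 CPM in the Total libraries, short of 2-fold), and Other Myeloid cells 261.7 and 106.9 CPM. Granulocytes, at 225.6 and 163.7 CPM, and T cells, at 153.5 and 103.4 CPM, did not pass the threshold. The other tumours held 91.0 to 174.3 CPM in macrophages, all below Clone E, but 124.4 to 381.2 CPM in dendritic cells, where 1 of them was above Clone E and Clone EM3 was the lowest. Ifi27l2a was 486.4 and 201.1 CPM in macrophages and 357.2 and 140.0 CPM in dendritic cells.

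Rsad2, which encodes the antiviral enzyme viperin, did not follow in macrophages, at 91.7 CPM in Clone E and 102.9 CPM in Clone EM3. In dendritic cells it was lower in Clone EM3, at 139.7 CPM (124.0 to 156.8) against 16.3 CPM (11.4 to 22.5). There 58.9% of the Clone E molecules came from 1 cell. Without the cell with most molecules on each side the levels were 58.0 and 13.2 CPM (log2 ratio -1.55). That was still past 2-fold, but the mean was under the limit for a measured gene. Bst2, which encodes the virus-tethering protein tetherin, was 557.4 and 310.2 CPM in macrophages, short of 2-fold. Of the listed type I interferon genes, macrophages had 9 measured, 3 past the threshold and all of these lower, with a median log2 ratio of -0.83 beside 0.05 for all measured genes. The medians were -0.96 over 9 genes in dendritic cells (4 lower), -0.99 over 9 in Other Myeloid cells (4 lower), -0.31 over 10 in T cells (0 past the threshold) and -0.10 over 17 in granulocytes (0 past the threshold).

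**Figure D2:**
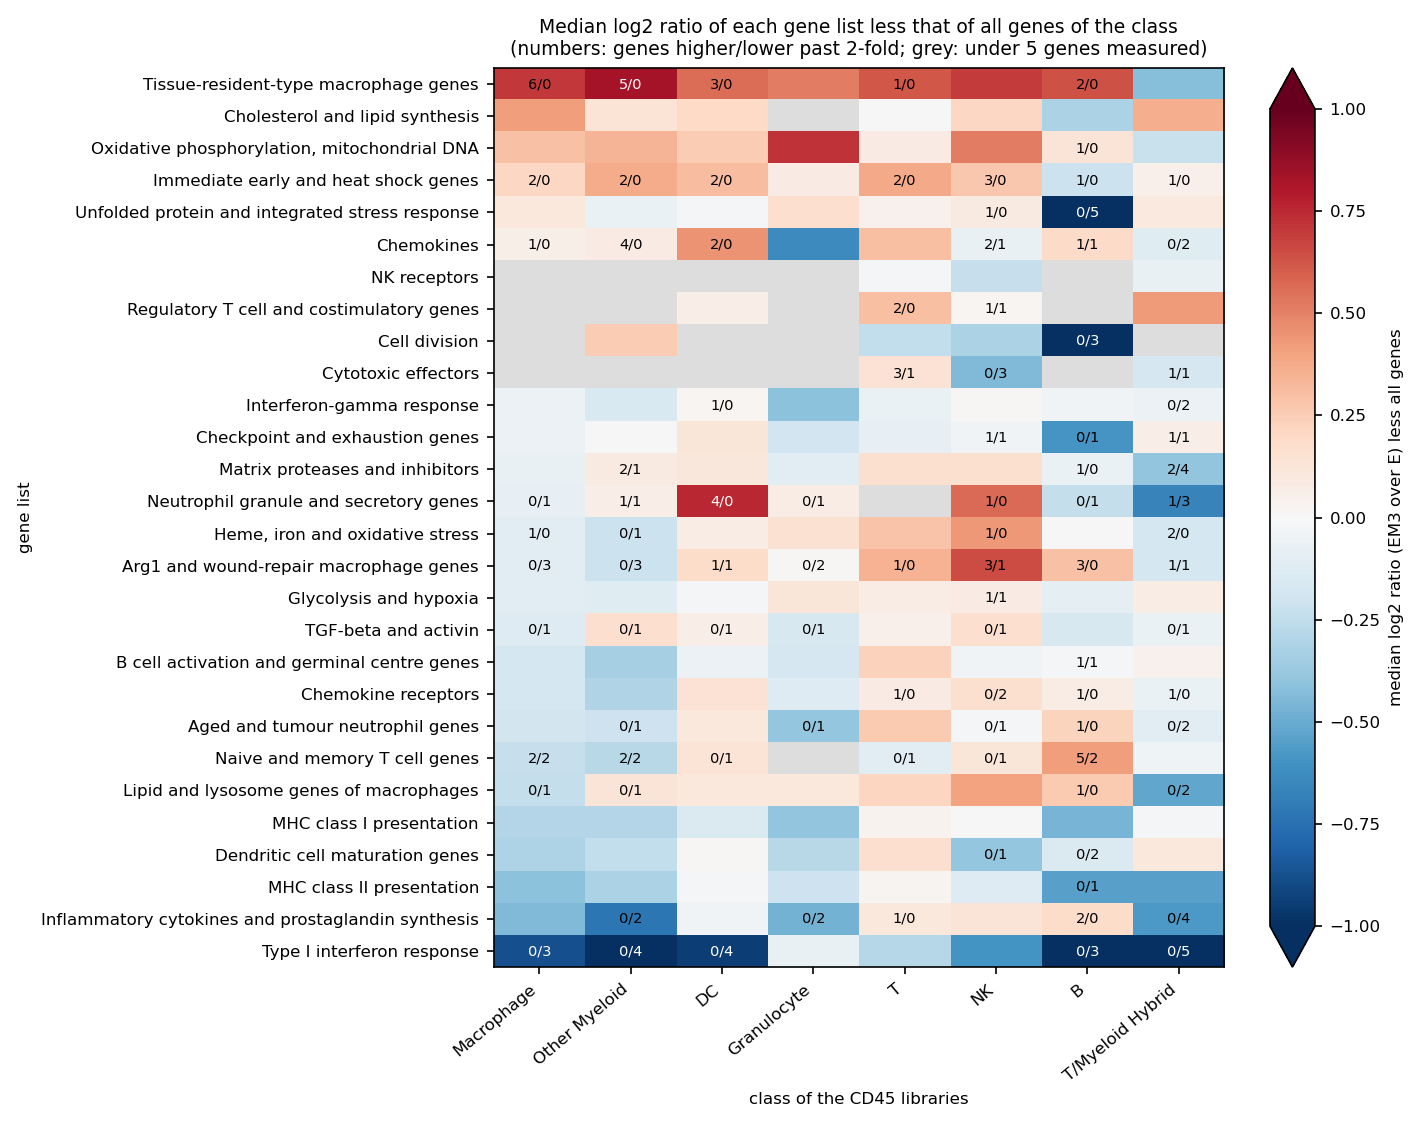
Median log2 ratio (EM3 over E, CPM + 10) of each gene list less the median of all measured genes, by class; the 2 numbers in a cell count the genes past 2-fold on the higher and the lower side, and grey marks lists with under 5 measured genes. Type I interferon genes are on the lower side in every class shown, and tissue-resident-type macrophage genes on the higher side in every class but T/Myeloid Hybrid cells.

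Macrophages of the Clone EM3 tumour had higher levels of 6 genes of the tissue-resident-type list and lower levels of Ly6c2, Chil3, Inhba and Isg15. Of 14 measured genes of the resident list, 6 were past the threshold, all higher (Folr2, Cd163, Stab1, Cbr2, Pf4 and Gas6), and the list's median log2 ratio was 0.76. The shift of this list was not limited to macrophages: its median was 0.88 over 7 genes in B cells (all genes 0.25), 0.70 over 9 in NK cells, 0.60 over 8 in T cells, 0.54 over 11 in dendritic cells and 0.49 over 7 in granulocytes, with 2, 0, 1, 3 and 0 genes past 2-fold. The macrophage markers moved with it in classes that should lack them. All 7 measured were above 0 in B cells (median 0.81), all 8 in NK cells (0.75), all 7 in T cells (0.61) and 6 of 8 in granulocytes (0.36). Over all listed markers, measured or not, the sums were 3996 and 5245 CPM in B cells and 4810 and 4982 CPM in granulocytes. The part of these markers in the shift of the list in these classes was not tested. The largest difference was in Fcrls (chr3:87250736-87263765), at 50.2 CPM (47.9 to 52.6) in Clone E and 346.9 CPM (341.2 to 352.6) in Clone EM3, a ratio of 6.57 to 7.26 by its counting interval. Folr2, a folate receptor (chr7:101839988-101857190), stood at 29.0 CPM (27.2 to 30.8) and 131.0 CPM (127.5 to 134.5). Both genes were low in the Clone E library alone: the 4 other CD45 libraries held 260.8 to 991.8 CPM of Fcrls and 108.5 to 316.9 CPM of Folr2. The Total libraries gave 43.9 and 484.6 CPM for Fcrls and 24.1 and 216.3 CPM for Folr2.

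Other members of the list and further genes outside it had the same order. Cbr2, a carbonyl reductase, was 17.3 CPM in Clone E and 108.1 CPM in Clone EM3 macrophages, and Fcna, which encodes the lectin ficolin A, was 32.4 and 159.1 CPM. Gas6, a ligand of the TAM receptors that mediate uptake of dying cells, was 52.3 and 160.0 CPM, and Cd163, the haemoglobin scavenger receptor, 26.0 and 87.3 CPM. Stab1 was 94.3 and 269.9 CPM, Pf4 159.1 and 347.1 CPM, Arsb, a lysosomal sulfatase, 40.3 and 185.1 CPM, and Nxpe5 32.6 and 113.7 CPM. Fcna, Arsb and Nxpe5, like Fcrls, were not on the list. For each of these 8 genes Clone E lay below all 5 other tumours. Not all genes of the list moved as far: Mrc1, the mannose receptor CD206, was 824.4 and 1403 CPM, and Selenop, a selenium carrier, 846.3 and 1137 CPM, neither of which reached 2-fold. Igfbp4 (44.6 and 207.5 CPM) passed it but was at least 10 times higher in tumour cells of the Total libraries.

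Ly6c2, Ly6c1 and Plac8, named here for their known place in monocytes and not from a fixed monocyte list, were on the lower side. Ly6c2 (chr15:75108161-75112066), the Ly6C antigen of recently arrived monocytes, was 170.8 CPM (166.5 to 175.2) in Clone E and 32.4 CPM (30.7 to 34.2) in Clone EM3 macrophages, which is 0.179 to 0.202 times the Clone E level. Ly6c1, a near-identical neighbour whose reads could be shared with it, was 106.5 and 23.1 CPM. Plac8, also high in monocytes, was 408.9 and 189.2 CPM. Clone EM1, Clone M and Parental 4T1 lay near Clone EM3, with at most 28.1 CPM of Ly6c2 and 23.7 CPM of Ly6c1, while Clone EM2 lay between the pair compared, at 72.4 and 62.1 CPM. A reference-based label deposited with the cells called 483 of the Clone E macrophages (9.44%) and 300 of the Clone EM3 macrophages (5.93%) monocytes. With the cells of each such label weighted to the same mix in both tumours, Ly6c2 was 184.7 and 46.6 CPM and Fcrls 49.2 and 330.7 CPM, while Plac8 fell short of 2-fold (log2 ratio -0.74).

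Inhba (chr13:16004256-16031609) had 2388 CPM (2372 to 2405) in Clone E macrophages and 877.1 CPM (868.1 to 886.2) in Clone EM3, the highest level among the lower macrophage genes named here, and 2288 against 368.1 CPM in the Total libraries. Both tumours were above the 4 others, which held 120.0 to 327.1 CPM. Chil3, the chitinase-like protein Ym1 (chr3:106147554-106167564), was 215.5 CPM (210.7 to 220.5) and 44.7 CPM (42.7 to 46.8), and Cfb 485.9 and 179.4 CPM. Spon1, an extracellular matrix protein, was 176.3 and 40.9 CPM, Adamdec1, a metalloproteinase-like protein, 131.6 and 27.6 CPM, and Areg, the growth factor amphiregulin, 204.5 and 75.7 CPM. Slc7a2, an arginine transporter (256.0 and 119.0 CPM), and Ass1, argininosuccinate synthase (290.0 and 131.1 CPM), were past the threshold too, while Arg1, the arginase of wound-type macrophages, was 3851 CPM in Clone E and 4029 CPM in Clone EM3. Areg and Slc7a2 were under 2-fold in the Total libraries (log2 ratios of -0.79 and -0.84).

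**Figure D3:**
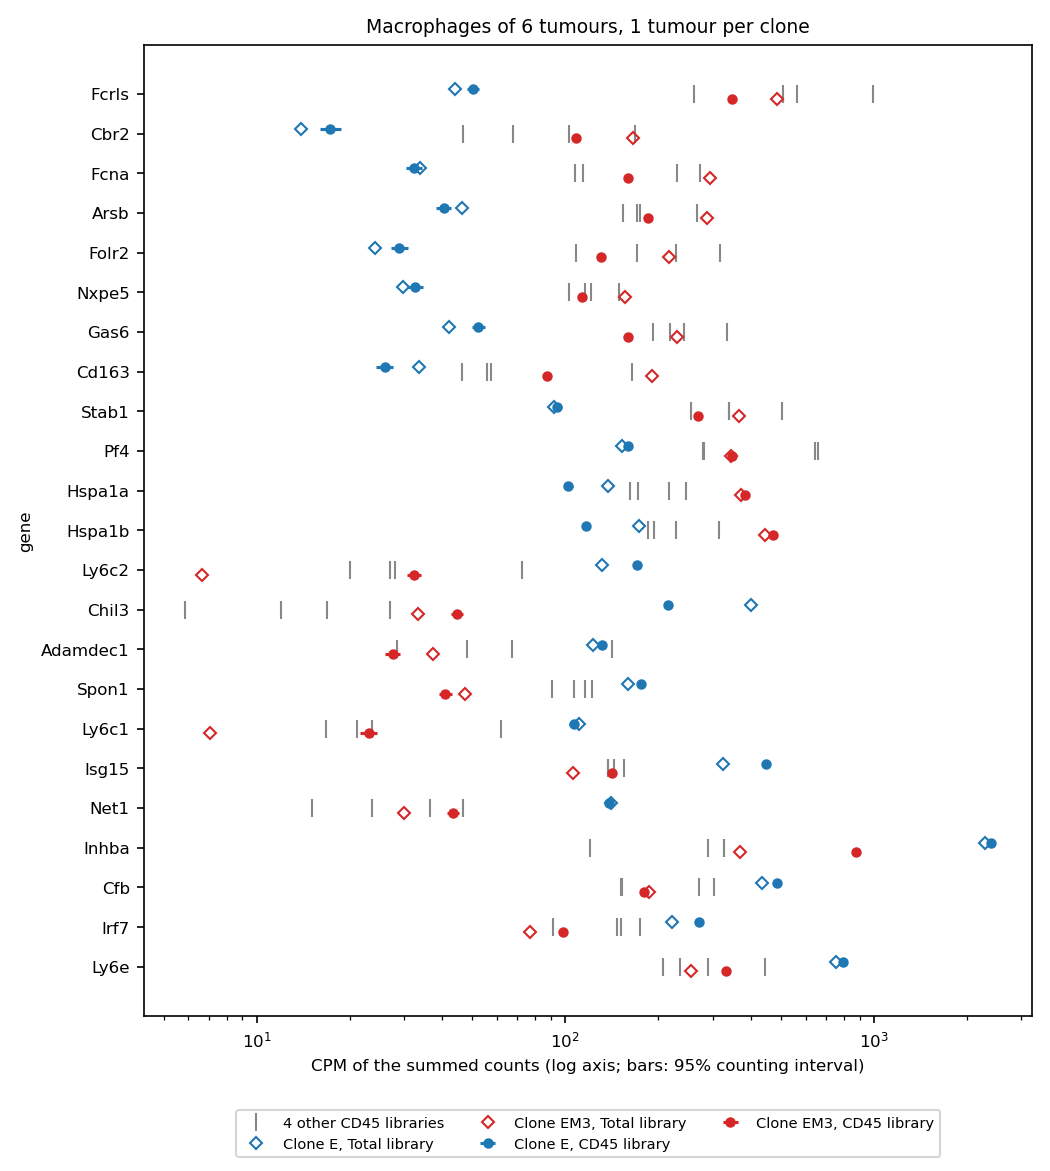
Level in macrophages (CPM, logarithmic axis) of the named genes in the Clone E and Clone EM3 CD45 libraries (filled points with 95% counting intervals), in the Total libraries of the same tumours (diamonds) and in the 4 other CD45 libraries (grey ticks). For Fcrls, Folr2, Isg15 and Ly6c2 the Clone E point is the one outside the grey ticks.

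In macrophages, antigen presentation and inflammatory genes shifted less than the threshold. All but 1 of the 10 measured MHC class II genes were below 0 on the log2 scale with none past 2-fold (median -0.36), as shown by H2-Ab1 at 5652 and 3836 CPM and the invariant chain Cd74 at 18137 and 13362 CPM. Of 12 inflammatory genes 10 were below 0 and none past 2-fold (median -0.39), among them Il1b (6556 and 5281 CPM) and Ptgs2, or cyclooxygenase-2 (1332 and 852.1 CPM). Macrophage markers themselves summed to 41260 CPM in Clone E and 37140 CPM in Clone EM3, with Csf1r, the receptor for the macrophage growth factor, at 837.8 and 1080 CPM. Mitochondrially encoded genes were above 0 in 11 of 12 cases (median 0.35, none past 2-fold), but went the other way in the Total libraries: mt-Nd1 was 188.6 and 285.7 CPM in the CD45 libraries and 395.9 and 345.6 CPM in the Total ones. Apoe also turned, with a log2 ratio of -0.33 in the CD45 libraries and 0.21 in the Total ones.

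Of the inducible Hsp70 genes, Hspa1a was past the threshold on the higher side in Clone EM3 in 7 of 8 classes and Hspa1b in 5. Hspa1a (chr17:34969359-34972156) was 102.2 CPM (98.8 to 105.6) in Clone E macrophages and 381.2 CPM (375.3 to 387.2) in Clone EM3 macrophages, with the 4 other tumours between, at 161.5 to 246.2 CPM. In T cells it was 42.4 CPM (36.0 to 49.6) and 439.8 CPM (418.1 to 462.4), in dendritic cells 131.4 and 368.6 CPM, and in Other Myeloid cells 74.6 and 583.8 CPM. Granulocytes were the exception in level, at 361.6 and 412.3 CPM. The share of granulocytes with a molecule of Hspa1a still differed, at 7.19% in Clone E and 17.0% in Clone EM3. Hspa1b (chr17:34956429-34959238), whose product differs little and whose reads could be shared, was 116.4 and 470.1 CPM in macrophages and 63.8 and 524.5 CPM in T cells. The Total libraries gave 137.7 and 370.9 CPM of Hspa1a in macrophages and 62.4 and 449.9 CPM in T and NK cells, whereas tumour cells of the same libraries had 63.5 CPM (56.9 to 70.8) in Clone E and 10.2 CPM (9.08 to 11.4) in Clone EM3. Hspa1b was far from absent in those tumour cells, at 1164 CPM (1135 to 1194) and 703.8 CPM (694.2 to 713.5). The co-chaperone Dnajb1 was 72.4 and 99.7 CPM in macrophages, short of 2-fold. Of the 19 measured immediate early and heat shock genes of macrophages, these 2 Hsp70 genes alone passed it.

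The Total libraries were compared with the CD45 libraries gene by gene. Of the 42 macrophage genes past the threshold, 40 had the same direction in the Total libraries and 35 were again past 2-fold. For T cells, set against the T/NK class of the Total libraries, 26 of 27 had the same direction and 15 were past 2-fold, and for granulocytes 11 of 14 and 8. For dendritic cells 29 of 38 had the same direction and 6 were past 2-fold, with 156 and 111 such cells in the Total libraries. For B cells the figures were 300 and 55 of 389, with 303 and 35 cells. The log2 ratios of the 2 kinds of library had a Pearson correlation across genes of 0.83 in macrophages (3596 genes), 0.661 in T cells (4683), 0.634 in granulocytes (2667), 0.453 in B cells (4094) and 0.355 in dendritic cells (3476). Genes of 1 pair of tumours are not independent replicates, and both libraries came from the same tumours.

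**Figure D4:**
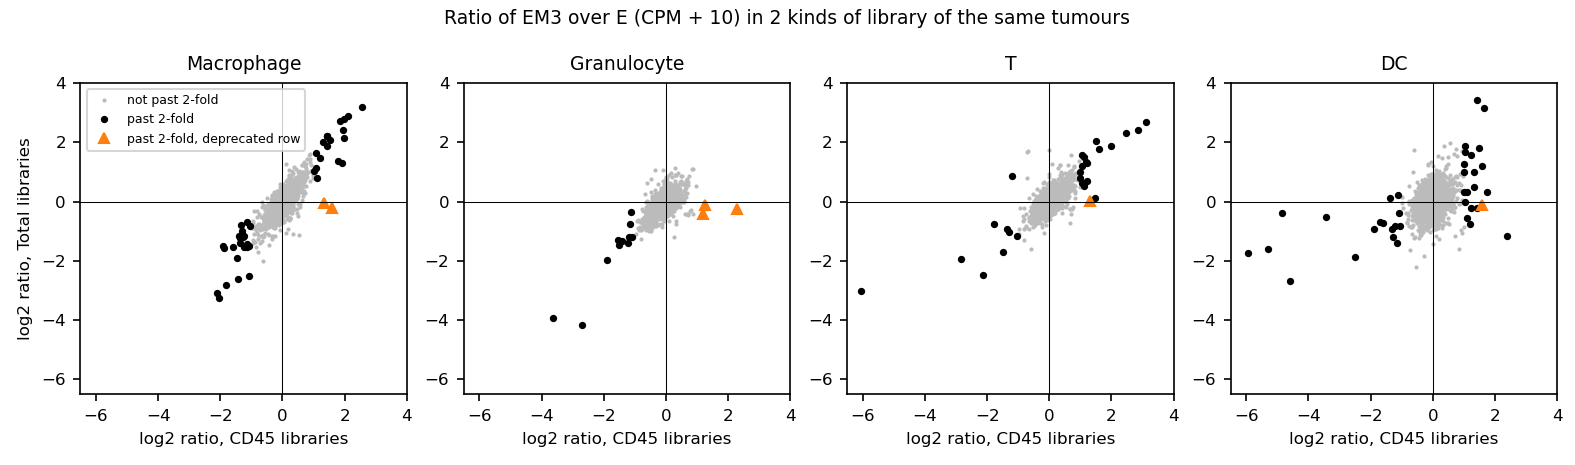
Log2 ratio of Clone EM3 over Clone E (CPM + 10) in the Total libraries (vertical) against that in the CD45 libraries (horizontal), 1 point per gene, for macrophages, granulocytes, T cells and dendritic cells; orange marks second table rows that the files call deprecated. Macrophage genes lie closest to the diagonal, and the orange points that are high in the CD45 libraries lie near 0 in the Total ones.

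In granulocytes, mostly neutrophils, Car4 and the cytokines Il1a and Tnf were on the lower side in Clone EM3. Car4, a membrane carbonic anhydrase (chr11:84957754-84966054), was 202.1 CPM (187.2 to 217.9) in Clone E and 47.0 CPM (40.8 to 54.0) in Clone EM3, and 169.8 against 35.7 CPM in the Total libraries. The cytokine Il1a (chr2:129299609-129310186) was 579.5 CPM (554.0 to 605.8) and 198.1 CPM (185.0 to 211.9), and Tnf 194.3 CPM (179.7 to 209.8) and 60.8 CPM (53.6 to 68.6). Clone E and Clone EM3 stood on different sides for these: for Car4, the other tumours held 26.0 to 58.1 CPM and Clone E stood out, while for Tnf they held 108.8 to 340.0 CPM and Clone EM3 was the lowest of the 6. Inhba was 481.8 and 175.8 CPM, Ly6e 272.3 and 121.3 CPM, Prnp, the prion protein, 75.0 and 28.6 CPM, and Ikbke, a kinase of the NF-kB and interferon pathways, 77.1 and 28.4 CPM. Chil3 was 78.6 and 28.4 CPM. Without the cell with most molecules on each side it was 72.0 and 26.8 CPM, still past 2-fold (log2 ratio -1.15), with a mean of 49.4 CPM just under the limit for a measured gene.

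Ccl3, Ccl4, Cxcl2 and Il1b were at lower values in Clone EM3 without reaching 2-fold. Ccl3 was 2906 CPM in Clone E and 1476 CPM in Clone EM3, Ccl4 1199 and 686.8 CPM, Cxcl2, which draws in more neutrophils, 11529 and 7135 CPM, and Il1b 6901 and 4880 CPM. Of 13 inflammatory genes 12 were below 0 (median log2 ratio -0.50, beside -0.03 for all measured genes), with Il1a and Tnf past 2-fold, and of 11 chemokine genes 8 were below 0 (median -0.66, none past 2-fold). All 10 measured MHC class I genes were below 0 (median -0.42). The identity of the cells by granule genes and markers was alike: Csf3r, the receptor for G-CSF, was 2109 and 2400 CPM, and the median of 20 neutrophil granule genes was 0.05. Icam1 (107.4 and 43.1 CPM) was also past 2-fold, but at least 10 times higher in another cell class of the same tumour. The antibody genes Igkc (122.9 and 10.2 CPM) and Ighg1 (117.3 and 0.233 CPM, or 353 cells against 1 with a molecule) were too. B cells of the same libraries held 53484 CPM of Ighg1 in Clone E and 0 in Clone EM3, and the part of antibody RNA from those cells in the granulocyte values was not tested. The mitochondrially encoded genes were above 0 in all 10 cases (median 0.69), yet mt-Nd1 was 47.6 and 78.2 CPM here against 498.5 and 368.8 CPM in the Total libraries.

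The 3 rows higher in granulocytes were all second rows of genes, called deprecated in the table: those of Hdc (137.2 and 707.3 CPM), Mxi1 (42.0 and 115.5 CPM) and Cpeb2 (38.7 and 101.5 CPM). In the Total libraries of the same tumours the Hdc row was 721.3 and 599.0 CPM. The second row held 5.75% of all Hdc molecules in the Clone E CD45 library and 27.1% in the Clone EM3 CD45 library, against 28.2% and 27.3% in their Total libraries. For Mxi1 the shares were 11.1% and 27.4% in the CD45 libraries and 28.6% and 30.1% in the Total ones. The difference of these rows appeared in 1 kind of library and not in the other.

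T cells had granzyme, receptor and Hsp70 genes on the higher side. Gzmf (chr14:56205263-56211407), a granzyme of strongly activated killer cells, was 29.1 CPM (23.8 to 35.1) in Clone E and 205.8 CPM (191.1 to 221.5) in Clone EM3, carried by 21 and 61 cells. Its near-identical neighbour Gzmd (chr14:56129556-56132603) was 17.1 and 98.2 CPM in 13 and 45 cells, and reads could be shared between them. Without the cell with most molecules on each side Gzmd was 13.9 and 85.7 CPM. That was still past 2-fold, but its mean was just under the limit for a measured gene. The Total libraries gave 120.9 and 635.3 CPM for Gzmf. Both genes belong to few cells, and the 4 other CD45 libraries reached 105.8 CPM at most for Gzmf. The main granzymes of killer cells did not follow: Gzmb was 621.5 and 444.7 CPM, short of 2-fold, while Gzma was 151.0 and 36.5 CPM but at least 10 times higher in NK cells. Perforin (Prf1) was 75.8 and 109.7 CPM and interferon gamma (Ifng) 63.0 and 40.8 CPM, neither past 2-fold.

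Several other genes on the higher side are known from regulatory and effector T cells. Il1rl1, the receptor for interleukin 33, was 267.8 and 622.1 CPM, Klrg1, an inhibitory receptor of differentiated cells, 106.8 and 233.1 CPM, and the chemokine receptor Cxcr3 103.5 and 225.4 CPM. Il5, the eosinophil growth factor, was 46.7 and 147.3 CPM in 16 and 40 cells, but 56.5 and 62.7 CPM in the Total libraries. Foxp3, the factor that defines regulatory T cells, was 287.7 and 449.6 CPM, short of 2-fold. Lyz2, a gene of macrophages and granulocytes, was 317.0 and 706.0 CPM and Itgam 33.1 and 83.3 CPM. The myeloid markers in the class moved the same way. The 7 measured macrophage markers were all above 0, and all listed ones summed to 2991 and 3598 CPM. The reference-based label called 26 of the Clone E cells (1.44%) and 92 of the Clone EM3 cells (5.35%) of the class macrophages. The part of these markers and cells in the Lyz2 and Itgam values was not tested.

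Segments of the T cell receptor were on both sides. Trbv14 (chr6:41135167-41135616), a variable segment of the receptor beta chain, was 91.8 CPM (82.3 to 102.1) in Clone E and 281.1 CPM (263.7 to 299.2) in Clone EM3, in 46 and 120 cells. Trbv13-3 (chr6:41130147-41130585), of a family of near-identical segments, was 206.4 CPM (192.0 to 221.7) and 39.0 CPM (32.8 to 46.2). Also lower were Trib2, a pseudokinase (227.9 and 74.4 CPM), Tnfsf4, the ligand of OX40 (135.6 and 47.1 CPM), Ppp2r2c (77.7 and 25.8 CPM) and Igfbp4 (209.2 and 86.4 CPM). Igfbp4 reversed in the Total libraries, at 232.8 and 435.7 CPM. The antibody genes Igkc and Ighg1 also passed the threshold, although both were at least 10 times higher in B cells: 86.1% of the Ighg1 molecules of Clone E T cells were in 1 cell, and without it the levels were 92.1 and 0 CPM, while Igkc was 403.9 and 48.0 CPM with all cells and 93.2 and 45.7 CPM without the cell with most molecules.

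The T cells of the 2 tumours were a different mix of the deposited subtypes, so the named genes were also read within each. Clone E had 407 and Clone EM3 62 cells of the Cd44- Cd4 subtype, 560 and 311 of the Gzmb+ Cd8 subtype, 194 and 496 of the Lef1+ Cd8 subtype, 195 and 363 of the Foxp3+ subtype, 344 and 424 of the Cd44+ Cd4 subtype, and 84 and 59 of the Mki67+ subtype. A Trdc+ subtype, with 18 and 6 cells, was not read on its own. Hspa1a was past 2-fold higher in 5 of the 6 subtypes read, with 28.1 and 126.8 CPM in Foxp3+ cells, 66.7 and 1081 CPM in Cd44+ Cd4 cells and 29.7 and 1178 CPM in Cd44- Cd4 cells. In the dividing Mki67+ subtype its mean was too low to count as measured (23.6 and 72.7 CPM). Gzmf sat in Gzmb+ Cd8 cells, with 82.3 CPM (67.3 to 99.8) and 722.4 CPM (663.8 to 784.7). Within that same subtype Gzmb was 991.2 and 574.3 CPM, lower in Clone EM3 without reaching 2-fold.

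Several differences of the whole class were small within a subtype. Trib2 was 778.0 and 796.0 CPM in Cd44- Cd4 cells, Il1rl1 1812 and 2268 CPM in Foxp3+ cells, and Klrg1 745.7 and 1030 CPM in the same cells, none past 2-fold. Cxcr3 was 436.0 and 506.9 CPM in Lef1+ Cd8 cells. The receptor segments behaved otherwise: Trbv14 was 58.6 and 909.1 CPM in Gzmb+ Cd8 cells, and Trbv13-3 in the same cells 437.0 and 6.44 CPM. Il5 was found in Cd44+ Cd4 cells (287.8 and 733.6 CPM) and was low in the other subtypes. With the 6 subtypes read at the same mix and Trdc+ cells left out, 18 genes passed the threshold in T cells instead of 27, and 15 were common to both. The 12 that no longer passed were Trib2 (217.3 and 156.6 CPM), Igfbp4 (166.6 and 137.5 CPM), Il1rl1, Klrg1, Cxcr3, Rln3, Dgat2, Fn1, Selenop, Tnfsf4, Ppp2r2c and Tent5a. Some of these stayed close to the limit, with log2 ratios of 0.995 for Tent5a, 0.94 for Selenop, 0.90 for Fn1, -0.92 for Tnfsf4 and -0.93 for Ppp2r2c.

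**Figure D5:**
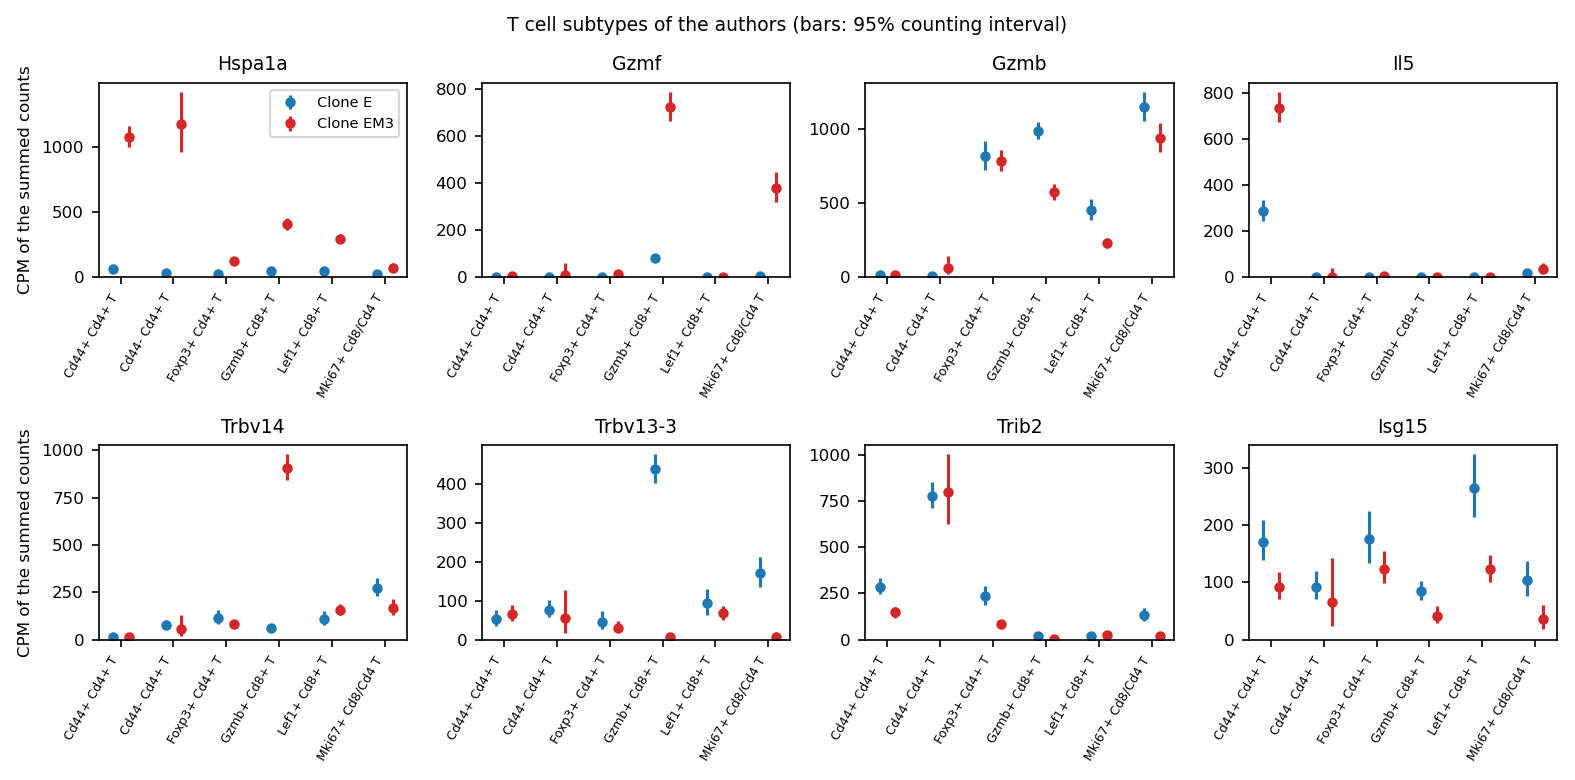
Level (CPM, linear axis, with its own scale for each gene) of 8 genes in the Clone E and Clone EM3 CD45 libraries within 6 of the deposited T cell subtypes, with 95% counting intervals. The Trdc+ subtype, with 18 and 6 cells, is not shown. Hspa1a is higher in Clone EM3 in each subtype shown, Gzmf and Trbv14 differ most in Gzmb+ Cd8 cells, and Trib2 is at the same level in Cd44- Cd4 cells.

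By list, T cells had 3 of 15 measured cytotoxic genes past 2-fold higher (Gzmd, Gzmf, Klrg1) and 1 lower (Gzma), with a median of 0.12. Of 18 regulatory and costimulatory genes 16 were above 0 (median 0.28), and all 10 cell division genes were below 0 (median -0.27, none past 2-fold), although Mki67 itself was 136.6 and 136.4 CPM. Of 15 checkpoint genes 10 were below 0, with none past 2-fold (median -0.11).

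Dendritic cells, which present antigen to T cells, differed in interferon genes, given above, but not in presentation or maturation genes. None of the 13 measured MHC class II genes (median -0.04) or of the 16 maturation genes (median -0.01) passed 2-fold: H2-Ab1 was 8604 and 8074 CPM, and Ccr7, the receptor that guides dendritic cells to lymph nodes, 1781 and 1986 CPM. Higher in Clone EM3 were Timd4, a receptor for dying cells (182.5 and 472.5 CPM), Fn1 (1902 and 3870 CPM), Itgam (150.9 and 392.5 CPM), Pf4 (32.1 and 131.9 CPM) and Fcrls (48.7 and 168.0 CPM). Cxcl9, a chemokine that attracts T cells, was 93.0 and 201.0 CPM, of which 119 of 445 Clone EM3 molecules were in 1 cell; without such cells it was 81.9 and 148.1 CPM, under 2-fold, and in the Total libraries 145.2 and 143.4 CPM. Lower were also Spon1 (98.3 and 19.0 CPM), Cfb (212.7 and 86.3 CPM), Inhba (592.3 and 277.8 CPM) and Plac8 (386.0 and 168.9 CPM).

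Cells of other types touched several values of the dendritic class. A single Clone E cell held 1419 of the 1428 molecules of Tpsab1, a mast cell tryptase (695.0 and 1.36 CPM), and nearly all of Mcpt1 (822 of 825) and Mcpt2 (595 of 598), so these differences came from 1 cell. Neutrophil genes were higher in Clone EM3, among them S100a8 (714.5 and 1655 CPM) and S100a9 (960.3 and 2098 CPM), both at least 10 times higher in granulocytes, and 4 of 8 neutrophil granule genes passed 2-fold. The granulocyte markers of the class summed to 4338 and 6714 CPM. The reference-based label called 149 and 137 cells of the class dendritic cells and 141 and 147 macrophages. For the same mix of these labels, cells of other labels were left out (20 and 6 monocytes, 5 and 8 neutrophils). At that mix Fcrls was 46.3 and 152.1 CPM and Pf4 31.5 and 119.7 CPM. Itgam was 130.2 and 339.1 CPM, and these genes were all past 2-fold. Fn1, Cxcl9, S100a8 and S100a9 fell short of it (log2 ratios of 0.93, 0.87, 0.90 and 0.90). The part of the cells left out was not tested. S100a8 and S100a9 were on the lower side in the Total libraries (-0.74 and -0.57).

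Other Myeloid cells, a mixed class of the deposited annotation, had many of the macrophage differences. The class included 56 Clone E and 30 Clone EM3 cells of a subtype called NK, and with the subtypes at the same mix Fcrls was 100.1 and 548.1 CPM, Inhba 1014 and 217.8 CPM and Chil3 174.0 and 37.4 CPM. At that mix 58 genes were past the threshold, 56 of them among the 59 of the whole class. With each cell weighing the same, 97 genes were past it, and only 44 of the 59 passed again. The median depth of the cells outside the NK subtype was 10929.5 and 2373 molecules, whose part in the values was not tested. Fcrls was 105.2 CPM in Clone E and 561.8 CPM in Clone EM3, Folr2 31.7 and 121.8 CPM, Gas6 34.8 and 134.5 CPM, Stab1 77.5 and 244.5 CPM, and Maf, a transcription factor of resident macrophages, 80.1 and 199.1 CPM. Of 12 resident-type genes 5 passed 2-fold, all higher (median 0.86). On the lower side were Inhba (1058 and 229.9 CPM), Chil3 (182.4 and 39.8 CPM), Adamdec1 (187.1 and 23.1 CPM), Mmp12, the macrophage elastase (897.7 and 327.5 CPM), Ptgs2 (688.1 and 283.2 CPM) and Ly6c2 (171.7 and 58.9 CPM). Macrophage markers summed to 38326 and 36055 CPM in the class. Mmp9, a matrix-degrading enzyme, was 89.0 and 610.6 CPM, though 240 of 340 Clone E molecules came from 1 cell. Spib, a factor of plasmacytoid dendritic cells, was 194.9 and 53.6 CPM, and the markers of those cells summed to 1934 and 1191 CPM. Ccl2 (36.9 and 129.2 CPM) and Ccl7 (54.7 and 180.5 CPM) were higher, both at least 10 times higher still in fibroblasts of the Total libraries. Of 19 cell division genes 18 were above 0 (median 0.28).

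NK cells were few, and single cells decided many values. Hspa1a was 40.8 CPM (16.4 to 84.1) from 7 molecules in 2 cells of Clone E, and 1229 CPM (1048 to 1432) from 164 molecules in 11 cells of Clone EM3. Gzma, the granzyme typical of NK cells, was 3413 CPM (3142 to 3701) and 1378 CPM (1186 to 1593), found in 53 and 31 cells. Gzmc was 2264 and 284.7 CPM, with 186 of 388 Clone E molecules in 1 cell, and Ifng 326.7 and 7.49 CPM, with 54 of 56 molecules in 1 cell. Markers of NK cells, a list that holds Gzma itself, summed to 5198 CPM in Clone E and 2727 CPM in Clone EM3. Most of that difference lay in Gzma. Of the other markers, Eomes, a transcription factor of NK cells (1056 and 794.1 CPM), and the receptor Ncr1 (145.9 and 119.9 CPM) were short of 2-fold. Of 16 cytotoxic genes 11 were below 0, 3 of them past 2-fold (Gzma, Gzmc and Ifng), and of 14 NK receptor genes 11 were below 0 with none past it. Macrophage markers in the class summed to 3156 and 3971 CPM and granulocyte markers to 3320 and 5424 CPM, whose part was not tested.

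In B cells the lower side was led by genes of plasma cells, which make antibody. The deposited subtypes held 35 plasma cells among the Clone E B cells (12.8%) and 1 among those of Clone EM3 (1.10%). Ighg1, the constant region of an IgG heavy chain, was 53484 CPM in Clone E, found in 66 cells, and was not seen in Clone EM3. Set against the limit of 3 molecules (23.2 CPM), it was at least 2304-fold higher in Clone E. Jchain, which links antibody units, was 5918 and 0 CPM, at least 255-fold higher in Clone E, and Igkc was 83443 and 6777 CPM. Of the 5 measured plasma cell markers 4 were past 2-fold lower (Jchain, Mzb1, Xbp1 and Derl3), and all listed ones summed to 9486 and 1346 CPM. Isg15 was 89.7 CPM in Clone E and 23.2 CPM in Clone EM3, the latter from 3 molecules.

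The higher side held Cd79a, Ms4a1 and Pax5, genes of B cells before they become plasma cells, and also genes known from macrophages (C1qc, Arg1, Thbs1, Fn1, Selenop and Acp5). All 7 measured macrophage markers were above 0 in the class, and all listed ones summed to 3996 and 5245 CPM. The part of these markers in the values was not tested. Cd79a, a subunit of the B cell receptor, was 1504 and 3404 CPM, Ms4a1, the antigen CD20, 286.2 and 727.2 CPM, and Pax5, the factor that keeps B cell identity, 422.3 and 889.7 CPM. Rag1, which cuts receptor genes in precursor B cells, was 60.3 CPM (42.9 to 82.5) and 495.1 CPM (381.3 to 632.3), in 16 and 21 cells, and 53.7 and 219.8 CPM in the Total libraries. Sox4, active in the same precursors, was 30.9 and 270.8 CPM. Beside the large antibody counts of Clone E, the median log2 ratio of all genes of the class was 0.25. The mix of B cell subtypes differed as well: 22 Clone E cells (8.03%) and 50 Clone EM3 cells (54.9%) were of the Cd25+Cd69+ subtype, and 193 (70.4%) and 37 (40.7%) of the Cd44-MHCIIhi subtype. Within Cd44-MHCIIhi cells alone, a comparison added after the data had been seen, no Rag1 molecule was seen in either tumour, where 3 molecules would be 58.6 CPM in Clone EM3. Cd79a was 2057 and 2659 CPM, Ms4a1 366.0 and 606.0 CPM and Pax5 495.0 and 703.7 CPM, all short of 2-fold. Igkc was 6732 and 7937 CPM there, Irf7 271.9 and 58.6 CPM (3 molecules in Clone EM3), and 57 genes were higher and 30 lower, of which 40 were among the 389 of the whole class. With TMM factors Cd79a (log2 ratio 0.90) and Pax5 (0.78) were under 2-fold, while Ms4a1 (1.04), Rag1 (2.59) and Sox4 (2.54) stayed past it. With these factors 149 genes were higher and 157 lower, so 48.7% of the differences were on the higher side instead of 78.9%. With antibody genes left out of the totals, an alternative added after the data had been seen, the counts were 170 and 131, and Cd79a (0.95) and Pax5 (0.83) were again under 2-fold.

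T/Myeloid Hybrid cells were mostly doublets by the score used, 65.2% of them in Clone E and 56.6% in Clone EM3, and only the rest entered the sums. Their differences rested on few cells: Tnf was 844.8 and 47.9 CPM with 303 of 430 Clone E molecules in 1 cell, Il23a 277.0 and 1.92 CPM with 140 of 141 in 1 cell, and Ifng 13.8 and 168.6 CPM with 80 of 88 Clone EM3 molecules in 1 cell. The macrophage markers summed to 23825.5 and 12972.5 CPM and the T cell markers to 1756 and 2108 CPM. Apoe, a lipid carrier that is itself among the summed macrophage markers, was 17975 and 7992 CPM, which is most of the difference in their sum. Mmp12 was 1764 and 285.6 CPM. Isg15 was 451.9 and 149.5 CPM and Rsad2 127.7 and 38.3 CPM, and 5 of 11 type I interferon genes were past 2-fold, all lower.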

How the data were processed

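Cells, gene tables and cell classes were used as the authors deposited them. The deposited matrices hold counts of molecules (UMIs) per gene and cell, and the authors' cell table gives classes, subtypes and a reference-based label. The cell table also gives, per the file headers, the percent of mitochondrial molecules, which the authors computed per cell. Cell Ranger and the build mm10 are named in the submitters' processing notes; filters on cells are not given in the sources used here. The labels name both a fixed-RNA kit and 3′ reagents, so the chemistry is unsettled. All 11024 Clone EM3 and 10894 Clone E CD45 cells were read. Doublets were called with Scrublet in scanpy 1.11.5 (expected 6%, 2 simulated pairs per cell, 30 components, score limit 0.297) and left out. A gene at least 10 times higher in another class is marked as such. Counts were summed per class and library and divided by the sum; intervals are exact Poisson at 95%. A count of 0 was set at 3 molecules for folds. The threshold was a mean of at least 50 CPM, 2-fold with a pseudocount of 10, and intervals that do not overlap; the script was tested on simulated data. With 1 tumour a side there are no p-values. Named genes were the 10 with the largest difference in each direction in macrophages, granulocytes and T cells and 5 in other classes, leaving out genes 10 times higher in other cells, plus members of the gene lists and the genes past 2-fold in most classes. The members, 42 lists and rules were chosen with earlier results of these data known. Promoter windows came from the RefSeq table of GRCm38.p6, which matched 57 of 83 genes looked up. Python 3.11.15, numpy 2.4.6, scipy 1.17.1, pandas 2.3.3 and edgeR 4.0.16 (TMM factors only) were used.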

Additional observations from a re-analysis of the deposited data

How the results depend on the processing

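No paired analysis was possible because each group has 1 tumour. The count of genes past the threshold was 389 in B cells, 38 in dendritic cells, 14 in granulocytes, 42 in macrophages, 63 in NK cells, 59 in Other Myeloid cells, 27 in T cells and 91 in T/Myeloid Hybrid cells. With a mean of at least 200 CPM it was 133, 18, 3, 12, 23, 21, 7 and 24 in that order. Without a filter on the mean it was 86 in dendritic cells, 38 in granulocytes, 99 in Other Myeloid, 62 in T and 162 in Hybrid cells. With each cell weighing the same it was 245 in B cells, 21 in dendritic cells and 97 in Other Myeloid cells, and 38.1% of the dendritic and 55.2% of the T cell differences were then higher, against 55.3% and 66.7%. In the Total libraries it was 55 in granulocytes (61.8% higher, against 21.4%), 96 in macrophages and 55 in T cells, and with doublets kept 38 in Hybrid cells. TMM factors, a pseudocount of 1, at least 650 genes per cell, subtypes at the same mix, leaving out genes high in other cells or shared droplets, and, chosen after seeing the data, leaving out antibody genes or the cell with the most molecules of a gene, kept every count within 1.5 times. The genes differed more: without shared droplets 29 of the 63 NK, 60 of the 91 Hybrid and 281 of the 389 B cell genes passed again. In Cd44-MHCIIhi B cells only, also added later, the B cell count was 87 and Igkc reversed (0.24). The cause of these changes was not tested. In the Total libraries the log2 ratio reversed for the deprecated row of Mxi1 (B -0.67, dendritic -0.13, granulocyte -0.13, macrophage -0.060), of Hdc (granulocyte -0.26) and of Cpeb2 (granulocyte -0.41, macrophage -0.23), and for Igfbp4 in T cells (0.88). Without its top cell Tpsb2 in dendritic cells was 0.064. Of 130 named values past the threshold, 129 kept their sign and 107 passed the threshold again without the top cell. In the Total libraries 81 of 89 kept their sign and 47 passed the threshold again. Subtypes at the same mix took in only subtypes or labels with at least 30 cells in each tumour, and cells of the others were left out. That setting was not run for B and NK cells, nor Total libraries for NK, Other Myeloid and Hybrid cells. No value has a replicate, and in Clone EM3 B cells 3 molecules are 23.2 CPM, so differences of rare genes there were not detectable.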

Other observations

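The rows called deprecated, 45 in the CD45 table, summed to 392.7 CPM in the Clone E CD45 library and 710.9 CPM in that of Clone EM3. The sums were 444.7 CPM in Clone EM1, 441.3 CPM in Parental 4T1, 670.5 CPM in Clone EM2 and 759.8 CPM in Clone M. In the Total libraries of Clone E and Clone EM3 the 56 such rows summed to 804.7 and 846.3 CPM.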
